A study of Mus musculus with 16 samples.

Results

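The genes described here are 41 genes of the urea cycle and of amino acid breakdown, chosen by name, with every probe that the array annotation gives to them. Of the 41 genes, 37 had a named probe (52 probes), against 25349 named probes among 46643 on the array. No probe carried the names Gls2, Got1, Sds or Sdsl, and these genes are not analysed here. A probe was tested where its detection score, a value between 0 and 1 that rises with the signal, was at least 0.6 on at least 2 arrays. This left 36 members with 49 tested probes, among 15324 genes tested in all, and where a gene had several probes the one brightest on average stands for it. A probe is called detected on an array where its score was at least 0.95. The probe of Oat, ornithine aminotransferase, was not tested and its signals lay between -14.1 and 2.4. RNA had come from liver, from brown fat (BAT, brown adipose tissue) and from white fat (WAT) of female C57BL/6 mice, housed singly on chow, with no genetic change or drug in any group. The cold mice had been kept for 48 h at 22°C and then for 24 h at 8°C, and the room temperature mice (RT) for 72 h at 22°C. There were 2 arrays for cold liver, 2 for RT liver, and 3 arrays each for cold BAT, RT BAT, cold WAT and RT WAT, 16 in all, hybridised to Illumina bead arrays. Per the methods each array held RNA of 1 animal and the analysis of a liver sample failed, so p-values measure the spread between arrays of these few animals. The methods also state that each mouse gave liver and both kinds of fat. Arrays of different tissues can therefore share a mouse. The fit treated all arrays as independent, also in comparisons between tissues.

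The liver is the main site where amino acids are taken apart. Their nitrogen is passed by transaminases to glutamate, released as ammonia and built into urea by the urea cycle, while the carbon skeletons go to glucose, ketone bodies or full oxidation. The branched-chain amino acids leucine, isoleucine and valine are an exception. Their first transamination takes place mostly outside hepatocytes, and brown fat is one of the tissues known to oxidise them.

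Marker genes went against the WAT label and, most in the cold, against the liver label, so these arrays are called labelled WAT and labelled liver below. Of 12 tested hepatocyte markers (secreted plasma proteins such as Ttr, transthyretin), 11 were detected on every labelled WAT array at both temperatures, where their signals summed to 117100 to 136300. Of 11 tested adipocyte markers, 3 were detected on every labelled WAT array at RT and 3 in the cold. On no array of that label were 4 detected at RT and 7 in the cold, leptin and perilipin among them at both temperatures. The adipocyte signals summed to 846 to 1208 on labelled WAT arrays. On every labelled liver array 10 of the 11 adipocyte markers were detected at RT and 11 in the cold. The adipocyte signals there summed to 30270 to 54170, against 23720 to 27790 in BAT. Hepatocyte sums on labelled liver arrays were 3351 to 8716 in the cold, against 85600 to 120300 at RT. In BAT the hepatocyte sums were 526 to 1143 in the cold, against 4716 to 9630 at RT, and skeletal muscle markers summed to 34690 to 69030 on its arrays. The albumin probe had a signal of at most 12.5 on every array. Macrophage sums lay between 190 and 3144, and kidney tubule markers summed to at most 37.2 on any array. Of the 16 arrays, 2 stood apart from their groups. The third labelled WAT array in the cold had exocrine pancreas markers summing to 69810, against 876 and 1174 on the other cold arrays and 1290 to 2437 on the RT arrays of that label. The second labelled liver array in the cold had muscle markers summing to 18570 and a Ucp1 signal of 12928, against 905 and 1774 on the first. That first array held the higher hepatocyte sum, 8716 against 3351.

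Promoter windows of some members, picked as examples, are shown to give the sequence context of these calls. RefSeq promoter windows (build GRCm38.p6, 250 bases before to 50 bases after the start of the transcript) matched 30 of the 41 members, with 32 windows. The first 4 below belong to genes that were lower in the cold on labelled liver arrays, 3 of them also in BAT, and the last to a gene that was higher in BAT than on labelled WAT arrays. Capitals mark the letters of 4 motifs, searched on both strands, with no overlap between different motifs in the windows shown. For the liver factor HNF1 the letters were GTTAAT. For HNF4, another liver factor, they were CAAAGT. The C/EBP core was TTGCNNAA. The TATA box was TATAAA.
Ass1, chr2:31470020-31470319, plus strand: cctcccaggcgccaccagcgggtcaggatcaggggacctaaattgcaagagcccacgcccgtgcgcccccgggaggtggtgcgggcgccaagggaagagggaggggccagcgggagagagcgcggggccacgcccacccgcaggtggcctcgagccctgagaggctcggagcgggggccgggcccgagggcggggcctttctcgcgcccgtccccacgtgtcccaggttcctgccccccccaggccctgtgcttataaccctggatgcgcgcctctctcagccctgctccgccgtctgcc
Hgd, chr16:37579903-37580202, plus strand: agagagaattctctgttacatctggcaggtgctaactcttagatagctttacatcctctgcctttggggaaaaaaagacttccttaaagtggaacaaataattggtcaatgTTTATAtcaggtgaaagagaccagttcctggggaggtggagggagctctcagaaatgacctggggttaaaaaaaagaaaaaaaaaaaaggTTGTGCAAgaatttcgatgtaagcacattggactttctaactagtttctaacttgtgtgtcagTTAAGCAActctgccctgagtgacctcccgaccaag
Ftcd, chr10:76575398-76575697, plus strand: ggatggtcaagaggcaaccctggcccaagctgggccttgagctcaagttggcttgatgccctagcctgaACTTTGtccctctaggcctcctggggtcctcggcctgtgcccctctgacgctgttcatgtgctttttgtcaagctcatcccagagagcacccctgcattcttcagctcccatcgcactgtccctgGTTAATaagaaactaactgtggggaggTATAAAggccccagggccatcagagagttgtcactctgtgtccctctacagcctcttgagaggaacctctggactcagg
Prodh2, chr7:30493408-30493707, plus strand: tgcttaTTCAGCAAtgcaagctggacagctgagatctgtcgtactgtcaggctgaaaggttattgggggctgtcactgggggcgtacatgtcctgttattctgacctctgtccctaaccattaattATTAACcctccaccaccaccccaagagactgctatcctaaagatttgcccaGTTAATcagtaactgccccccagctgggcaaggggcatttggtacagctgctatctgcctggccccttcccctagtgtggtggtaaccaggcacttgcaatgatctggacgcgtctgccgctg
Bckdha, chr7:25658712-25659011, minus strand: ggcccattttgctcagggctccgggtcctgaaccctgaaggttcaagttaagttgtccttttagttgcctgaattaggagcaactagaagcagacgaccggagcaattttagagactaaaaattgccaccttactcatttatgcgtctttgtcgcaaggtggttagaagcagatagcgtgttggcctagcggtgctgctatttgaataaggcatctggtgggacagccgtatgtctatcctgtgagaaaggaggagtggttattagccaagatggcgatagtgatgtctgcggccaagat
The windows of Ass1 and Bckdha held none of the 4 motifs. The Hgd window held the C/EBP core at 2 places and the TATA letters once on the reverse strand. The Ftcd window held the HNF1 and HNF4 letters and, 29 bases before the start, the TATA letters. In the Prodh2 window the HNF1 letters occurred at 2 places and the C/EBP core once. Over all 32 member windows, 5 (15.6%) held the HNF1 letters, against 7.1% of 32851 windows of the genome. These are few windows, and the difference was not tested. The shares were 18.8% against 14.4% for HNF4, 12.5% against 10.8% for C/EBP and 15.6% against 13.6% for the TATA letters. Of 18 members lower in the cold on labelled liver arrays that had a window, 4 held the HNF1 letters and 3 those of HNF4. The C/EBP core occurred in 4 of the 18 and the TATA letters in 4. Windows of other lower members, such as Hpd and Cbs, held none of the motifs. A match is a match of letters and does not show that a factor was bound.

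**Figure D1:**
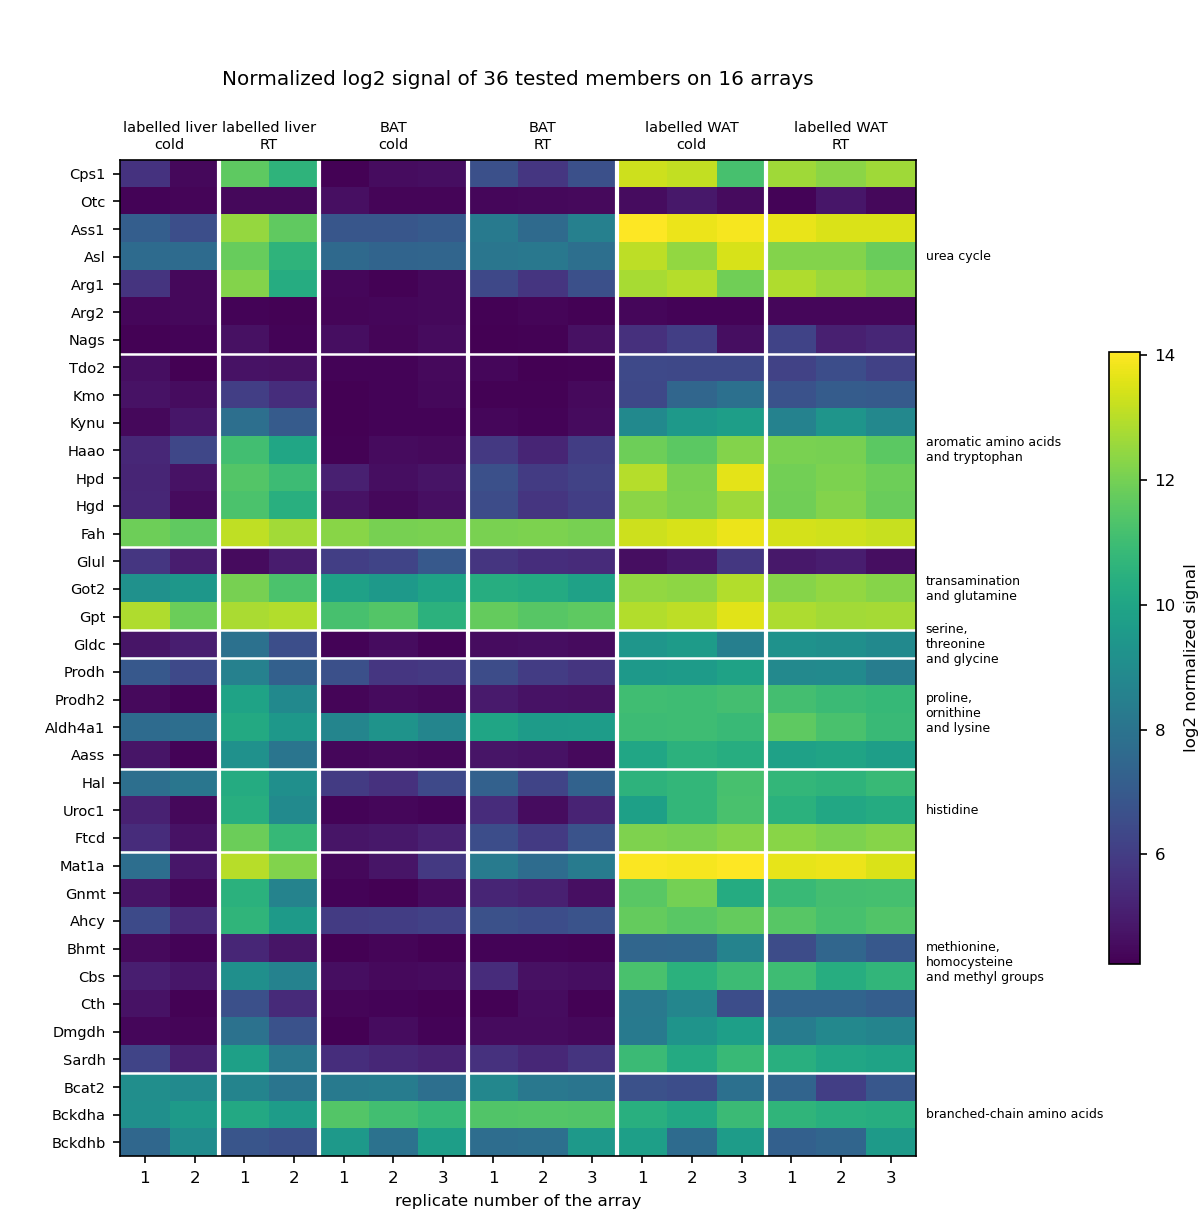
Normalized log2 signal of the 36 tested members (rows, grouped by role) on the 16 arrays (columns, by label, temperature and replicate number). Most members were bright on labelled WAT arrays and on RT labelled liver arrays and dim on BAT and cold labelled liver arrays, while Fah, Gpt and the branched-chain genes were bright or moderate on every array.

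On the arrays labelled liver, genes of nearly every branch of amino acid breakdown were lower in the cold. Of the 36 tested members 23 were lower and none was higher (limma, Benjamini-Hochberg adjusted p under 0.05 over 39730 probes). Over all genes tested 3.37% were lower and 1.18% higher. The unadjusted counts at p under 0.05 were 26 lower and 0 higher. The median log2 difference was -2.56 over the members and 0.02 over all genes. In normalized values the cold and RT arrays did not overlap for 35 of the 36 members, against 43.3% of all genes with 2 arrays a group. In the same comparison 11 of the 12 hepatocyte markers were lower, with a median log2 difference of -5.49. Of 7 tested macrophage markers 1 was lower and 0 higher. The macrophage sums were 1846 and 3144 in the cold, against 1179 and 1630 at RT. Most of these sums was Lyz2, with 1409 and 2758 in the cold, against 778 and 1109 at RT. Clec4f went the other way, with -0.5 and 0.2 in the cold, against 202 and 48.9 at RT. The adipocyte sums were 38320 and 54170 in the cold, against 30270 and 43180 at RT. The part of these markers in the fall of the members was not tested. In tissue extracts, a different mix of tissues between the groups, fewer cells of a type and less RNA per cell cannot be told apart. The markers above also go against the label of these arrays.

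**Figure D2:**
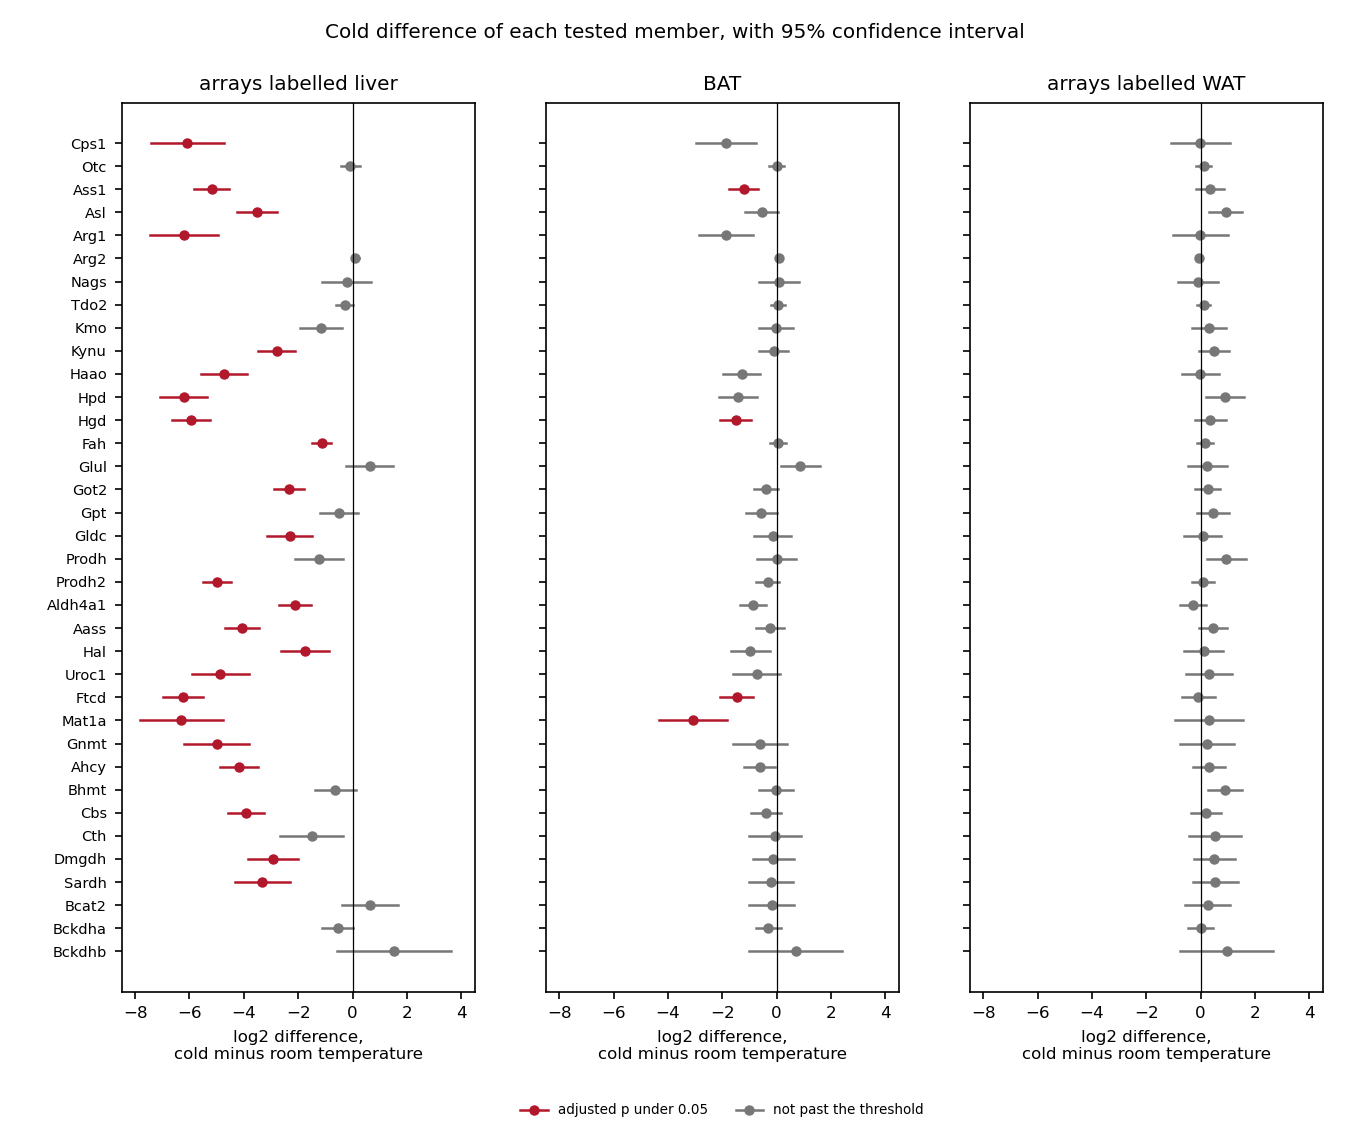
Log2 difference between cold and room temperature (x axis) of each tested member (y axis) on labelled liver, BAT and labelled WAT arrays, with bars for 95% confidence intervals of the limma fit and red for adjusted p under 0.05. On labelled liver arrays 23 members were lower, with Mat1a at -6.30, in BAT 4 were lower, and on labelled WAT arrays none was called.

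The genes of the urea cycle split into those that fell steeply and those whose probes were near background. Cps1, carbamoyl phosphate synthetase, which makes the first compound of the cycle from ammonia, had signals of 35.5 and 0.2 on labelled liver arrays in the cold, against 3189 and 1556 at RT. In BAT the Cps1 signals were -6.2, 5.5 and 5.9 in the cold, against 83.9, 40.6 and 85.2 at RT. Labelled WAT arrays showed 10044, 9287 and 2302 in the cold, against 6450, 5294 and 6488 at RT. The gene was thus near background in the cold under both of the other labels and bright on all labelled WAT arrays, with its lowest value there on the third cold array, the one with pancreas markers. The fall on labelled liver arrays was 67.6-fold (log2 difference -6.08, 95% interval -7.42 to -4.74, limma adjusted p = 6.91e-05).

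Ass1, argininosuccinate synthetase, which adds the second nitrogen from aspartate, had signals of 130 and 81.9 on labelled liver arrays in the cold, against 5813 and 3166 at RT, a 36.2-fold fall (limma adjusted p = 7.53e-07). Its signals on labelled WAT arrays were 18180, 13345 and 15688 in the cold, against 13851, 11579 and 11741 at RT. The cold and RT groups were far apart on labelled liver arrays. On labelled WAT arrays their deposited signals overlapped and their normalized values did not (13.77 to 14.05 log2 units in the cold, against 13.50 to 13.73 at RT), and the difference did not pass. Asl, argininosuccinate lyase, which releases arginine, had 190.0 and 189.9 on labelled liver arrays in the cold, against 3428 and 1551 at RT, an 11.5-fold fall (limma adjusted p = 4.53e-05). On labelled WAT arrays Asl signals were 8716, 5669 and 11567 in the cold, against 4792, 4941 and 3607 at RT, and in BAT 179, 154 and 159 in the cold, against 261, 272 and 210 at RT. For this brightest Asl probe the groups did not overlap under any label, and the difference passed the test on labelled liver arrays only. The other tested Asl probes were 3.92-fold and 6.14-fold lower on labelled liver arrays and did not pass (limma adjusted p = 0.0989 and 0.0508). Their groups overlapped in BAT and on labelled WAT arrays. Arg1, the liver arginase that splits arginine into urea and ornithine, had 37.5 and 0.4 on labelled liver arrays in the cold, against 4907 and 1253 at RT, a 73.5-fold fall (limma adjusted p = 2.69e-05). In BAT Arg1 signals were -1.3, -5.9 and 0.4 in the cold, against 66.8, 38.4 and 84.0 at RT, and on labelled WAT arrays 6864, 8084 and 3893 in the cold, against 7485, 6030 and 4825 at RT. Cold BAT arrays did not detect Arg1, and the labelled WAT groups overlapped.

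Probes for the other cycle genes were dim. The Otc probe (ornithine transcarbamylase, which makes citrulline) had signals of at most 13.1 on every array and the Arg2 probe (the mitochondrial arginase found outside the liver) of at most 1.2. Nags, which makes the activator of Cps1, had signals of 33.5, 52.0 and 5.9 on labelled WAT arrays in the cold, against 59.4, 18.4 and 23.5 at RT, and at most 8.7 on any labelled liver or BAT array. No direction in the cold was measured for these 3 genes on labelled liver or BAT arrays.

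Of 7 genes for the aromatic amino acids and tryptophan, 5 were lower in the cold on labelled liver arrays. The steepest was Hpd, 4-hydroxyphenylpyruvate dioxygenase of tyrosine breakdown, with signals of 22.6 and 8.9 in the cold, against 2715 and 2009 at RT, a 74.2-fold fall (limma adjusted p = 1.38e-06). In BAT Hpd signals were 18.6, 6.5 and 10.0 in the cold, against 83.0, 46.5 and 57.3 at RT, and on labelled WAT arrays 7948, 4221 and 13094 in the cold, against 4105, 4416 and 3855 at RT. The labelled WAT groups overlapped for Hpd. Hgd, which opens the ring of homogentisate at the next step, had signals of 23.6 and 4.1 on labelled liver arrays in the cold, against 2415 and 1373 at RT, a 61.4-fold fall (limma adjusted p = 5.99e-07). On labelled WAT arrays Hgd signals were 5251, 4353 and 6363 in the cold, against 3970, 4914 and 3642 at RT, and these groups overlapped. Fah, the last step of tyrosine breakdown, fell far less, with signals of 3848 and 3215 in the cold, against 8620 and 6618 at RT (2.19-fold, limma adjusted p = 0.00129). Along the kynurenine path of tryptophan, Haao was 26.6-fold and Kynu 6.93-fold lower, while Kmo (log2 difference -1.16, limma adjusted p = 0.137) and Tdo2 (log2 difference -0.29, limma adjusted p = 0.457) did not pass. Tdo2, the first enzyme of that path, had a signal of at most 9.7 on the labelled liver arrays.

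Among the genes for transamination and glutamine, Got2, the mitochondrial aspartate aminotransferase, had signals of 567 and 683 on labelled liver arrays in the cold, against 4229 and 2457 at RT, a 5.04-fold fall (limma adjusted p = 0.000128). Its signals in BAT were 923, 739 and 949 in the cold, against 1308, 1208 and 915 at RT, and on labelled WAT arrays 5737, 5312 and 7843 in the cold, against 4985, 5729 and 4776 at RT. Both of these pairs of groups overlapped. The other tested Got2 probes were dimmer and did not pass on labelled liver arrays (log2 differences -0.56 and -0.83, limma adjusted p = 0.731 and 0.412). Gpt, alanine aminotransferase, had signals of 7990 and 3746 on labelled liver arrays in the cold, against 7345 and 7604 at RT, and was the 1 tested member whose labelled liver groups overlapped. Glul, glutamine synthetase, had a log2 difference of 0.63 and a limma adjusted p of 0.674 there. Gldc, the decarboxylase of the glycine cleavage system, had signals of 11.2 and 18.0 in the cold, against 226 and 80.5 at RT, on labelled liver arrays, a 4.98-fold fall (limma adjusted p = 0.00451). On labelled WAT arrays Gldc signals were 661, 765 and 340 in the cold, against 588, 549 and 465 at RT, and no BAT array detected it.

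Of the 4 tested genes for proline, ornithine and lysine, 3 were lower. Prodh2, which oxidises hydroxyproline, had signals of 2.4 and -4.3 on labelled liver arrays in the cold, against 954 and 464 at RT, at least 27.2-fold lower because neither cold array detected it (limma adjusted p = 2.11e-07). A bound of this kind sets an undetected array at its lowest detected signal. Labelled WAT arrays held 2073, 2002 and 2174 for Prodh2 in the cold, against 2232, 1897 and 1808 at RT, while the BAT signals were -2.4, 3.8 and 0.8 in the cold, against 14.8, 9.0 and 8.5 at RT. Prodh2 was thus measured mainly on labelled WAT and RT labelled liver arrays. Aass, which starts lysine breakdown, was 16.8-fold lower and Aldh4a1, shared by proline and hydroxyproline breakdown, 4.3-fold lower. Prodh, proline dehydrogenase, had a log2 difference of -1.23 (limma adjusted p = 0.188).

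All 3 histidine genes were lower on labelled liver arrays. Ftcd, which passes a formimino group from histidine to folate, had signals of 30 and 8.8 in the cold, against 3613 and 1784 at RT, a 75.3-fold fall (limma adjusted p = 6.56e-07). On labelled WAT arrays its signals were 4661, 4191 and 4857 in the cold, against 5170, 4452 and 4793 at RT, with overlapping groups. A second, dimmer Ftcd probe did not pass on labelled liver arrays (log2 difference -0.75, limma adjusted p = 0.216). Uroc1, urocanase, was 29.3-fold lower. Hal, histidine ammonia lyase, which starts the path, was 3.33-fold lower, with signals of 208 and 260 in the cold, against 1217 and 539 at RT (limma adjusted p = 0.0413). The Hal call ended when any 1 of 10 arrays was left out, with an adjusted p of up to 0.451 without the first RT labelled liver array.

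Of 8 genes for methionine, homocysteine and methyl groups, 6 were lower. Mat1a, the liver enzyme that makes S-adenosylmethionine, had signals of 202 and 11.9 on labelled liver arrays in the cold, against 8057 and 4663 at RT, a 78.8-fold fall (limma adjusted p = 0.000168). The 2 cold arrays differed widely for Mat1a, and the fall was 28.4-fold without the second and 219-fold without the first. On labelled WAT arrays Mat1a signals were 17569, 14935 and 17659 in the cold, against 13282, 13701 and 11836 at RT. These labelled WAT groups did not overlap, and their difference did not pass (limma adjusted p = 0.993). Gnmt, which spends methyl groups on glycine, was 32-fold lower on labelled liver arrays, Ahcy, which splits S-adenosylhomocysteine, 18.1-fold, and Cbs, which draws homocysteine toward cysteine, 15-fold. The mitochondrial enzymes Sardh (10-fold) and Dmgdh (at least 6.43-fold), which oxidise sarcosine and dimethylglycine, were lower as well. Bhmt, which remethylates homocysteine with betaine, and Cth, which forms cysteine, did not pass (limma adjusted p = 0.57 and 0.236), with RT signals on labelled liver arrays between 11.2 and 84.6.

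None of the 3 tested branched-chain members passed on labelled liver arrays. Bcat2, the mitochondrial transaminase for leucine, isoleucine and valine, had signals of 526 and 472 there in the cold, against 394 and 252 at RT (limma adjusted p = 0.775, 95% interval of the log2 difference -0.39 to 1.66). Bckdha, a subunit of the branched-chain ketoacid dehydrogenase that commits the carbon to oxidation, had 550 and 749 in the cold, against 1131 and 792 at RT (limma adjusted p = 0.456, interval -1.11 to 0.02). Bckdhb, the partner subunit, had 167 and 497 in the cold, against 98.6 and 83.9 at RT (limma adjusted p = 0.673, interval -0.57 to 3.62). These intervals leave room for changes in either direction, so the genes are not shown to be unchanged.

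The calls on labelled liver arrays rest on the spread shared with the other groups. With only the 4 labelled liver arrays in the fit none of the 23 passed, and leaving out each array in turn gave 22 to 24 lower members. Every called member but Hal kept its call without each array, but the sizes depended on single arrays. Cps1, Arg1, Kynu, Hgd, Aass, Uroc1 and Gnmt were detected on only 1 of the 2 cold labelled liver arrays. Their fold sizes thus rest in part on values near background. The Cps1 fall was 44.1-fold without the second cold array, which did not detect it. The Arg1 fall was 37.6-fold without the first RT array and 143-fold without the second. For Asl it was 7.69-fold without the first RT array and 17.1-fold without the second, and for Gldc 3.14-fold and 7.9-fold, in the same order.

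In BAT, 4 members were lower in the cold and none was higher, of 36 tested. Over all genes tested 0.587% were lower and 0.424% higher. The unadjusted counts were 11 lower and 1 higher. The cold and RT groups did not overlap for 19 members, against 19.5% of all genes with 3 arrays a group. The same comparison had 8 of 12 hepatocyte markers lower, with a median log2 difference of -2.10, while of 12 muscle markers none passed (median log2 difference -0.47). The part of these markers in the 4 calls was not tested.

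Ass1 (chromosome 2) had signals of 100.2, 103 and 114 in BAT in the cold, against 289, 185 and 348 at RT, a 2.33-fold fall (log2 difference -1.22, 95% interval -1.74 to -0.69, limma adjusted p = 0.046). Hgd (chromosome 16) had 9.1, 0.3 and 7.5 in the cold, against 77.0, 37.9 and 51.6 at RT, at least 2.35-fold lower since no cold array detected it (limma adjusted p = 0.0245). Ftcd (chromosome 10) had 11.1, 12.9 and 19.6 in the cold, against 78.1, 45.0 and 91.2 at RT, a 2.77-fold fall (limma adjusted p = 0.0379). For these 3 genes the cold arrays were all below the RT arrays, and the second RT array was the lowest of its group. Mat1a (chromosome 14) had 0.6, 11.3 and 42.7 in the cold, against 308, 196 and 303 at RT, an 8.51-fold fall (log2 difference -3.09, 95% interval -4.34 to -1.83, limma adjusted p = 0.0365). The signals of all 4 genes in RT BAT were small beside those on RT labelled WAT arrays, between 1.33% and 2.21% of them as means of the same probe. These calls lay close to the threshold. Leaving out 1 array in turn gave 0 to 5 lower members, with 0 when any RT or cold BAT array other than the second RT array was left out. A fit without the arrays labelled liver, chosen after seeing the data, gave 7 lower members, the 4 above with Arg1, Haao and Ahcy.

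The branched-chain members in BAT showed no call in the cold. Bckdha had signals of 2778, 2143 and 1792 in the cold, against 2670, 2761 and 2685 at RT, and Bcat2 289, 316 and 212 in the cold, against 428, 274 and 249 at RT. Both pairs of groups overlapped (limma adjusted p = 0.812 and 0.983). Bckdhb had 715, 231 and 831 in the cold, against 197, 210 and 727 at RT, and its spread within a group was as wide as the difference between the groups. Glul, which binds ammonia as glutamine outside the urea cycle, had signals of 51.4, 61.1 and 113 in the cold, against 38.1, 30.3 and 28.1 at RT. The Glul groups did not overlap, and the difference passed only before adjustment (log2 difference 0.88, 95% interval 0.17 to 1.59, limma adjusted p = 0.417).

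**Figure D3:**
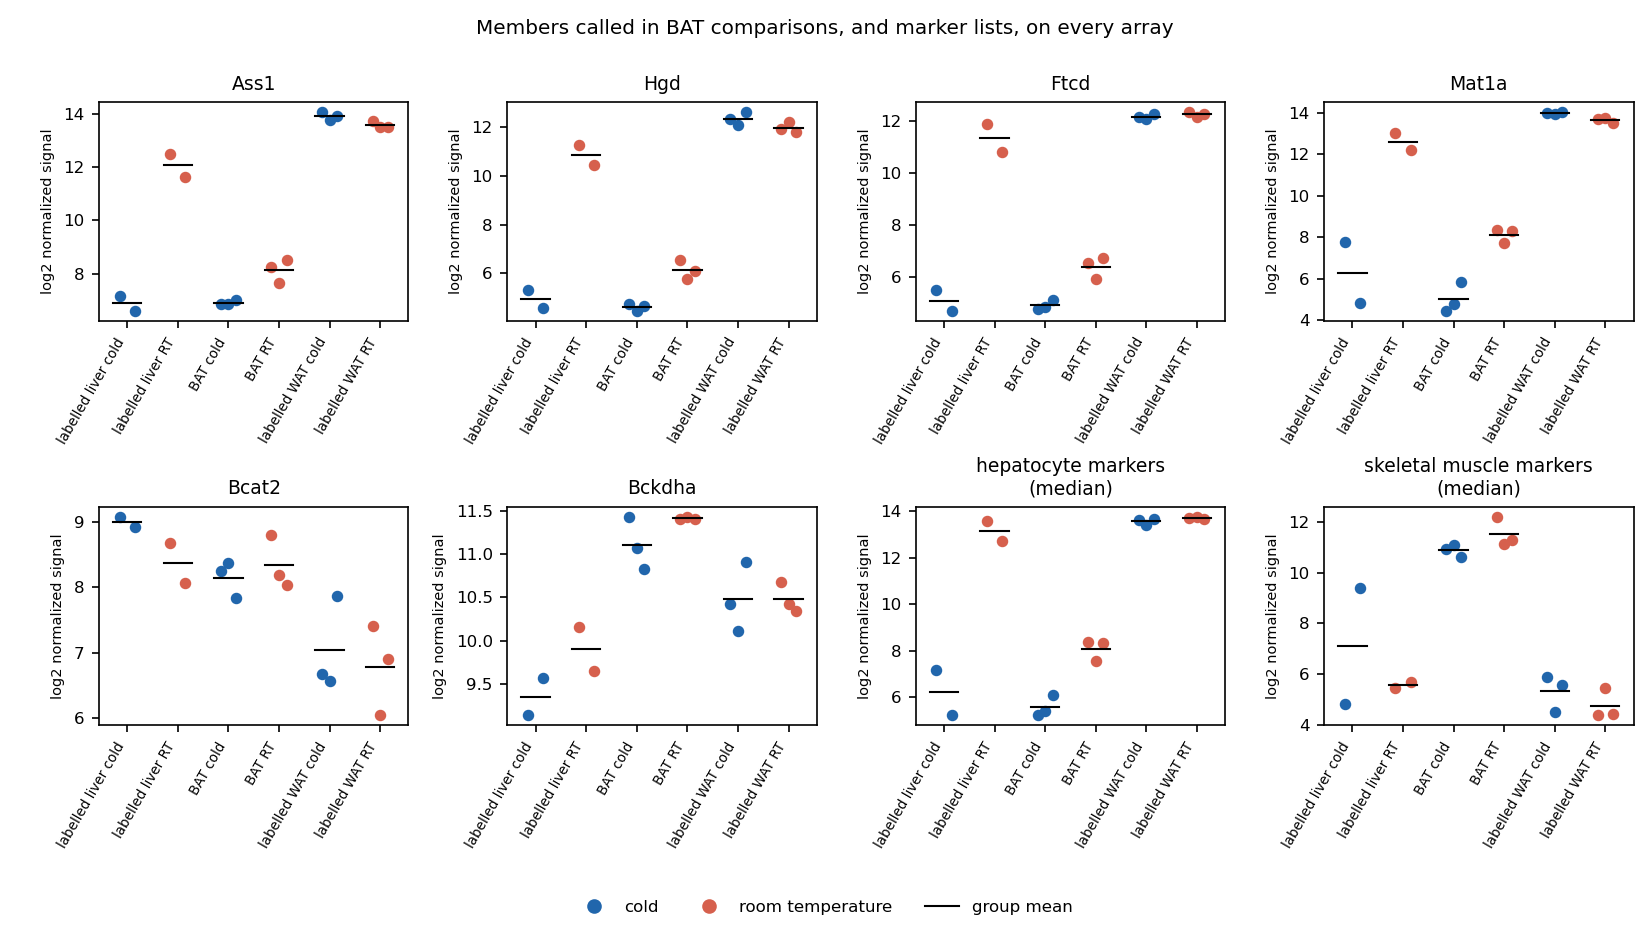
Log2 normalized signal on each array (points) with the group mean (lines) for the 4 members lower in BAT in the cold, the 2 higher in BAT at RT than on labelled WAT arrays, and the median of the hepatocyte and skeletal muscle markers, with a separate y range in each panel. In BAT, Ass1, Hgd, Ftcd, Mat1a and the hepatocyte markers lay lower on every cold array than on every RT array, while Bcat2 and Bckdha overlapped.

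On the arrays labelled WAT no member passed in the cold. Of all genes tested 0.0457% were higher and 0.0653% lower there. Before adjustment 4 members were higher (Asl, Hpd, Prodh and Bhmt) and 0 lower. All 4 had their highest cold signal on the third array, the one with pancreas markers. Of 36 differences 29 were above 0, and the median log2 difference was 0.26 over the members and -0.0045 over all genes. For 8 members the groups did not overlap, against 10.5% of all genes. Asl was 1.89-fold higher (95% interval of the log2 difference 0.31 to 1.52, limma adjusted p = 0.505). Taken over any probe of a gene, 1 member was called. This was the second probe of Bhmt, which rose by 0.63 on the log2 scale (limma adjusted p = 0.0296), a probe with signals of at most 24 that was chosen after its values were seen. The first Bhmt probe had 162, 168 and 379 in the cold, against 77.4, 161 and 107 at RT, with a limma adjusted p of 0.557. The third cold array also held the lowest Cps1 and Gnmt signals of its group, and without it the count of calls over the brightest probes was again 0. Hepatocyte markers had a median log2 difference of -0.07 in this comparison.

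The difference between labels in the response to cold was tested as an interaction. The fall was steeper on labelled liver arrays than in BAT for 20 members and steeper than on labelled WAT arrays for 22, and no member was called the other way. Over all genes 2.4% and 2.3% were called in that direction, and 0.829% and 0.372% in the other. For Cps1 the cold difference was lower by 4.21 log2 units than in BAT and by 6.07 than on labelled WAT arrays (limma adjusted p = 0.016 and 0.000996). Mat1a differed from labelled WAT (limma adjusted p = 0.00151) but not past the threshold from BAT (limma adjusted p = 0.131). None of the 3 branched-chain members was called in either test. Members near background in RT BAT had little room to fall there. Gldc, Kynu and Dmgdh were detected on no RT BAT array. The mean Cps1 signal was 69.9 in RT BAT, against 2373 on RT labelled liver arrays. For such members the test against BAT cannot tell a smaller response from a signal already near background. Hepatocyte markers separate the RT from the cold arrays of this label by the sums given above, and their part in these differences was not tested.

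At RT, BAT had far lower signals than labelled WAT arrays for most members. Of 36 tested, 30 were lower and 2 higher, against 11.7% lower and 15.4% higher over all genes. The BAT and labelled WAT arrays did not overlap for 34 members, against 42.9% of all genes. Prodh2 was 72.4-fold lower, Cps1 73.5-fold and Arg1 80.5-fold. Of the 33 members detected on every RT labelled WAT array, 25 had a mean BAT signal under 10% of that of the same probe there, with a median of 1.49%. The 11 hepatocyte markers detected there had a median of 1.98%, and 10 of the 11 were under 10%. The members that kept more signal in BAT were Fah (41.5%), Gpt (45.1%), Aldh4a1 (34.9%), Got2 (22.1%) and Prodh (13.2%), and the 3 branched-chain genes were above 100%. In the cold the median over the 33 members was 0.237%.

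**Figure D4:**
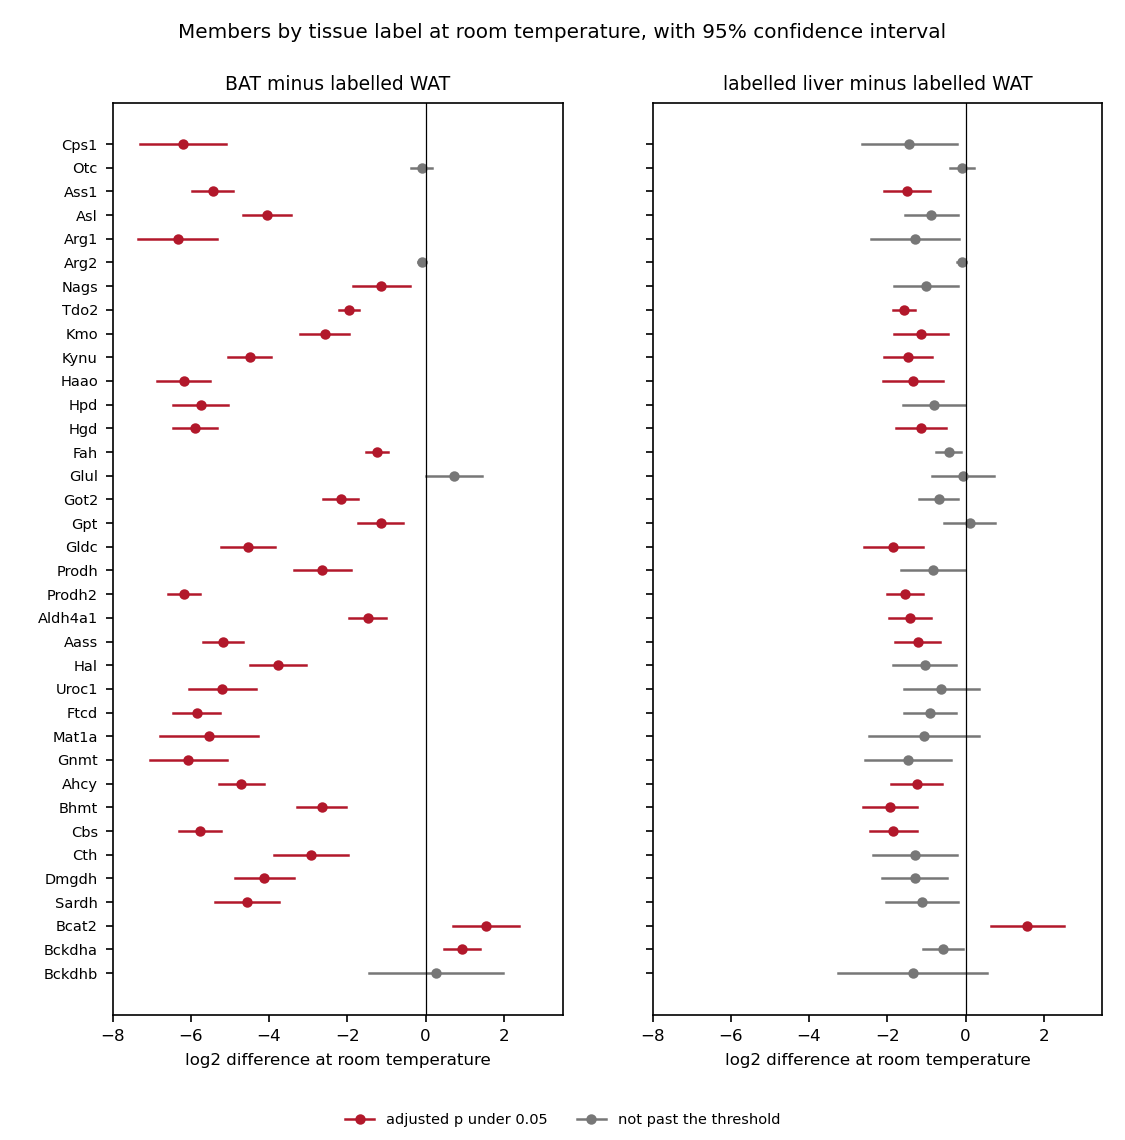
Log2 difference at room temperature (x axis) of each tested member (y axis) in BAT and on labelled liver arrays, each against labelled WAT arrays, with 95% confidence intervals and red for adjusted p under 0.05. In BAT 30 members were lower and 2, Bcat2 and Bckdha, higher, while on labelled liver arrays 13 were lower and 1, Bcat2, was higher.

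Both members that were higher in RT BAT act on the branched-chain amino acids. Bcat2 had signals of 428, 274 and 249 in RT BAT, against 155, 50.8 and 104 on RT labelled WAT arrays, 2.93-fold higher (log2 difference 1.55, 95% interval 0.71 to 2.39, limma adjusted p = 0.0127). All BAT arrays were above all labelled WAT arrays, but the call ended without the first RT BAT array (limma adjusted p = 0.0621) or without the second RT labelled WAT array. Bckdha had 2670, 2761 and 2685 in RT BAT, against 1618, 1357 and 1286 on RT labelled WAT arrays, 1.9-fold higher (95% interval of the log2 difference 0.47 to 1.39, limma adjusted p = 0.00746), and kept its call without each array. Bckdhb did not differ past the threshold, with 197, 210 and 727 in BAT, against 135, 160 and 744 on labelled WAT arrays. Skeletal muscle, a tissue that also uses branched-chain amino acids, was present on the BAT arrays by the marker sums given above. It was nearly absent on RT labelled WAT arrays, where those sums were at most 616. In the same comparison 8 of 11 adipocyte and 9 of 11 brown adipocyte markers were higher in BAT. RT labelled liver arrays had muscle sums of 925 and 1394 and adipocyte sums of 30270 and 43180. Their signals were 394 and 252 for Bcat2, and 1131 and 792 for Bckdha. The part of muscle and of fat cells in these 2 calls was not tested.

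On labelled liver arrays at RT, of 36 members 13 were lower than on RT labelled WAT arrays and 1, Bcat2, was higher (2.99-fold, limma adjusted p = 0.0366), against 7.22% and 8.47% of all genes. The groups did not overlap for 31 members, against 44.4% of all genes. The mean signal was a median of 43.7% of the labelled WAT signal over the 33 members and 71.8% over the 11 hepatocyte markers. The RT arrays differed, with Arg1 at 4907 on the first and 1253 on the second, and the hepatocyte sum was 120300 on the first and 85600 on the second. The count of lower members was 4 without the second array and 23 without the first. The Bcat2 call ended without either of them, and also without the first cold BAT array, the second RT BAT array, or the second or the third RT labelled WAT array.

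In the cold, 29 members were lower in BAT than on labelled WAT arrays and 1 was higher, against 11.6% and 16.1% of all genes. The higher one was Glul, with 51.4, 61.1 and 113 in BAT, against 5.9, 11.8 and 41.7 on labelled WAT arrays (2.56-fold, limma adjusted p = 0.0101). Without the third cold labelled WAT array 3 members were higher, Glul, Bcat2 and Bckdha. Labelled liver arrays in the cold had 29 lower members and 1 higher, Bcat2 (3.9-fold, limma adjusted p = 0.00567), against labelled WAT arrays, with 12% lower and 16.9% higher over all genes. Bckdha was among the lower ones there (2.18-fold, limma adjusted p = 0.00445).

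BAT and labelled liver arrays in the cold both had little signal for most members, with medians of 0.237% and 1.11% of the RT labelled WAT level. The comparison called 2 members higher in BAT and 3 lower, against 9.87% and 11.9% of all genes. Bckdha was 3.36-fold and Aldh4a1 2.25-fold higher in BAT. Gpt (2.49-fold), Hal (3.9-fold) and Haao (at least 1.94-fold) were lower in BAT.

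Other genes of amino acid metabolism were counted from 4 lists. On labelled liver arrays in the cold, 11 of 25 tested other breakdown genes were lower and none higher, with Bhmt2 (26.6-fold), Agxt (24.1-fold), which handles glyoxylate, and Pipox (at least 8.54-fold), which oxidises pipecolate. Of 13 amino acid carriers 6 were lower, with Slc38a3, a glutamine carrier, 32.8-fold lower and Slc6a12, a betaine carrier, 13.7-fold. Of 6 synthesis genes Shmt1 and Shmt2 were lower. None of 14 other branched-chain genes was called there, with 1 higher and 0 lower before adjustment. In BAT and on labelled WAT arrays no gene of these lists passed in the cold, with unadjusted counts of 3 higher and 9 lower in BAT and 4 higher and 0 lower on labelled WAT arrays, over 58 genes.

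Between BAT and labelled WAT at RT, the other branched-chain list had 4 genes higher and 1 lower of 14, against 15.4% higher and 11.7% lower over all genes. In this comparison 11 of 12 skeletal muscle markers were higher (median log2 difference 6.92), as were 8 of 11 adipocyte and 9 of 11 brown adipocyte markers, and the part of these markers in the differences below was not tested. Bckdk, the kinase that switches the ketoacid dehydrogenase off, had signals of 833, 829 and 910 in BAT, against 101, 69.4 and 65.8 on labelled WAT arrays, 9.39-fold higher (limma adjusted p = 4.42e-08). Dld, the E3 subunit shared by ketoacid dehydrogenases, was 3.95-fold and Pccb, of propionyl-CoA carboxylase, 2.13-fold higher. Ppm1k, the phosphatase that opposes Bckdk, was 2.59-fold lower in BAT. Asns, asparagine synthetase, was at least 13.8-fold higher in BAT, with signals of 394 to 414, against -1.8 to 10.6 on labelled WAT arrays. In the same comparison 14 of 25 other breakdown genes and 7 of 13 carriers were lower, and none of either list was higher.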

How the data were processed

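RNA of BAT, WAT and liver had been hybridised to 16 Illumina arrays. The deposited intensity values are linear signals per probe that the authors background-subtracted and scaled before deposit by a method not given in the sources used here, with about 38% of them below 0 on each array. On all 16 arrays the first quartile was -2.7, the median 2.7 and the third quartile 18.35 to 18.4. Deposited signals and marker sums were thus already matched in their quartiles across tissues, before the quantile scaling run here. The authors deposited a detection score per probe, headed as a p-value but rising with the signal, and a log2 value table relative to each probe's median over the arrays after a floor of 5.

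Here the signals went through the neqc function (normexp with an offset of 16, then quantile scaling) of limma 3.58.1, run under R 4.3.3. A mean for each of 6 groups was fitted with limma over all arrays, and p-values were adjusted by Benjamini and Hochberg over all tested probes. Detected means a score of at least 0.95. The fit was tested on simulated data. The platform annotation gave a gene to 25349 of 46643 probes, and probe positions were not mapped. The number of arrays limits the precision. Named members are the urea cycle genes, those called in BAT or on labelled WAT arrays, the largest change of each role on labelled liver arrays, and those highest in BAT. Members and lists were chosen with earlier results of these data known. Alternatives covered background, scaling, filters, probes, blocks, left-out arrays and the methods' t-test.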

Additional observations from a re-analysis of the deposited data

Results flagged for a closer look

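The response to cold differed between arrays labelled liver and the other labels for most of the named members, by limma's test of the interaction. The values below are log2 differences between the cold responses, with labelled liver first, so a negative value means a lower response there. Against BAT the difference was -4.21 for Cps1, -3.96 for Ass1, -2.98 for Asl and -4.34 for Arg1 (limma adjusted p of 0.000122 to 0.016). For amino acid breakdown against BAT it was -4.78 for Hpd, -4.43 for Hgd, -1.95 for Got2, -2.17 for Gldc, -4.67 for Prodh2 and -4.77 for Ftcd (limma adjusted p of 1.13e-05 to 0.0494, with the highest for Gldc). Gldc was detected on no RT BAT array and Prodh2 on 1 of 3, which left these genes little room to fall in BAT.

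Against labelled WAT arrays the difference was -6.07 for Cps1, -5.51 for Ass1, -4.44 for Asl and -6.18 for Arg1 (limma adjusted p of 9.48e-06 to 0.000996). It was -7.12 for Hpd, -6.30 for Hgd, -2.59 for Got2, -2.39 for Gldc, -5.08 for Prodh2, -6.15 for Ftcd and -6.62 for Mat1a (limma adjusted p of 3.45e-06 to 0.0318). In the same arrays the hepatocyte sums were 3351 and 8716 on cold labelled liver arrays, against 85600 and 120300 at RT, and their part in these differences was not tested.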

How the results depend on the processing

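Of 224 recomputed counts of called members, 200 were within 1.5 times of the reported count and 24 were not, and no count turned its direction. A fit of only the groups compared gave 0 lower members on cold labelled liver arrays, 0 higher ones in BAT over labelled WAT in the cold, 0 higher and 5 lower on labelled liver over labelled WAT arrays at RT, 0 higher there in the cold, and 1 lower in BAT against labelled liver in the cold. Such a fit has fewer arrays, down to 4. The methods' t-test at their p and fold threshold gave 1 higher and 10 lower members in cold BAT, and after Benjamini-Hochberg adjustment 0 lower there and 0 on cold labelled liver arrays. For cold BAT the lower count was 2 without further background correction, 1 with an offset of 50, 2 from the authors' log2 table and 7 without the arrays labelled liver. Any probe of a gene gave 1 higher member on cold labelled WAT arrays. For BAT over labelled WAT in the cold the higher count was 0 without further background correction or from the authors' table, and 3 with a detection score of at least 0.95 or with an intensity trend and robust variances. For labelled liver over labelled WAT at RT, no further correction and the authors' table each gave 0 higher and 7 lower. Scaling to the 75th percentile gave 4 members higher in BAT than on labelled liver arrays in the cold, and it moved the median of all probes by 0.16 there, by -0.11 for labelled liver over labelled WAT at RT and by -0.17 in the cold. The cause of these changes was not tested. Leaving out each array in turn gave ranges of 22 to 24 lower on cold labelled liver arrays and 0 to 5 lower in cold BAT. The ranges were 1 to 2 higher and 29 to 30 lower for BAT over labelled WAT at RT, and 1 to 3 higher and 29 to 30 lower in the cold. They were 0 to 1 higher and 4 to 23 lower for labelled liver over labelled WAT at RT, 29 to 30 lower in the cold, and 2 to 3 in each direction for BAT over labelled liver in the cold. The interactions kept 15 to 21 and 20 to 24 lower members. With the replicate number as a block over both temperatures, the counts were 23 lower on cold labelled liver arrays, 4 lower in cold BAT and 0 on cold labelled WAT arrays. They were 2 higher and 30 lower for BAT over labelled WAT at RT, and 1 higher and 12 lower for labelled liver over labelled WAT at RT. That block joins cold and RT arrays, which came from different mice, so its counts do not test pairing by mouse. Deviations from the group means correlated weakly between same-numbered BAT and labelled WAT arrays at RT (0.093, 0.138 and 0.148). Differently numbered arrays there gave -0.125 to -0.022. In the cold same-numbered arrays gave 0.137, -0.002 and -0.011, and differently numbered ones -0.133 to 0.123. These values do not settle whether the numbers pair the samples, and the main fit did not pair them. A block for number within temperature, without labelled liver arrays, gave 3 higher and 29 lower for BAT over labelled WAT at RT. A slide block was not run, since the slide of each array is not named in the sources used here. The fit without the arrays labelled liver was chosen after seeing the data. Probes near background limit what can be said of their genes, for Otc and Arg2 under every label and for Tdo2 outside labelled WAT arrays.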

Other observations

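The Bckdhb probe split the arrays of BAT and labelled WAT by replicate number. At RT its signal was 727 on the third BAT array, against 197 and 210 on the others, and 744 on the third labelled WAT array, against 135 and 160 on the others. In the cold BAT held 715, 231 and 831, and labelled WAT arrays held 864, 191 and 803, with the second array the lowest under both labels. Whether same-numbered arrays came from the same mouse is not given in the sources used here.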
